A study of Rattus norvegicus with 144 samples.

Results

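The adrenal glands of rats dosed for 14 days with AMG A at 3 or 30 mg/kg were compared with those of rats dosed with 0 mg/kg for the same time. The members are the 12 adrenal arrays whose labels name AMG A at one of these doses on day 14, together with the adrenal controls of day 14 whose animal numbers (3009 to 3012) belong to the AMG A animals, out of 144 arrays in the series. Each group held 4 animals, numbered 3009 to 3012 at 0 mg/kg, 3021 to 3024 at 3 mg/kg and 3033 to 3036 at 30 mg/kg. All were male Sprague Dawley rats of 8 to 10 weeks that carried no transgene, were dosed by mouth once a day and differed, per the labels, only in the dose. AMG A and AMG B are known here by code names alone. The series' design text calls the pharmacology antiangiogenic and places the doses where mild to moderate pathology was foreseen. The question is which adrenal transcripts differ at each dose and whether they follow the dose.

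The adrenal gland is a steroid-making cortex wrapped around a medulla of chromaffin cells, which make catecholamines. The outer zona glomerulosa makes aldosterone and the inner cortical zones make corticosterone, the main glucocorticoid of the rat, from cholesterol that the cells take up or synthesise. Both compartments are supplied by a dense bed of fenestrated sinusoids, whose upkeep is known to depend on vascular endothelial growth factor (VEGF) signalling through the receptors Kdr and Flt1, and the gland is wrapped in fat.

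The values are scores that the authors standardised for each probe set, so that 0 is that probe set's mean over all arrays of the series and 1 unit its standard deviation. A score difference therefore gives no fold change and no RNA amount, and scores of different genes do not rank their abundance. On the 12 arrays the cortical enzymes Star, Cyp11a1, Cyp21a1 and Cyp11b1 scored between 1.43 and 2.02, against -0.71 to -0.66 in pancreas of the same animals. The chromaffin markers Th, Dbh, Pnmt, Chga and Chgb scored between 0.49 and 1.98, so both compartments were in the samples and the labels hold. The defining genes of liver (Alb, Apoa1, Fgb) and pancreas (Prss1, Cpa1, Pnlip) were at their floor on every adrenal array. Fat cell genes were not: the mean score of 18 such genes was 1.06 in control 3010, 0.98 in 3024, 2.04 in 3035 and 1.10 in 3036, and between -0.30 and 0.26 in the other 8 animals. Array medians ran from 0.0065 to 0.034 and pairs of arrays correlated at 0.568 to 0.769 over all 31042 probe sets. The first principal component held 23.8% of the variance and set 3023 (52.7) and 3022 (31.4), both at 3 mg/kg, apart from their group mates 3021 (-23.0) and 3024 (-27.9). Within the 3 mg/kg group the arrays correlated less with each other (mean 0.636 to 0.691) than with arrays of the other groups (mean 0.656 to 0.714). No label names a batch. Fits with the fat cell score of each array as a covariate are given beside the lists at 30 mg/kg. They use a common slope per gene over all 48 adrenal arrays, those of AMG B included. With the first principal component as a covariate 0 genes passed at 3 mg/kg. Precision is limited by how many arrays there are.

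At 3 mg/kg the vitamin D receptor and the histone mark reader Sgf29 fell, and no gene rose. Differences are group means of scores, tested with limma, with Benjamini-Hochberg adjustment over 14217 genes and a threshold of 0.05. Of these genes 2 (0.0141%) passed. All p-values measure the spread between animals.

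Vdr (chromosome 7, 130864764 to 130916757 on assembly GRCr8), the nuclear receptor of calcitriol, scored 3.62, 2.52, 1.66 and 3.64 in controls 3009 to 3012, and 0.61, 1.07, 2.10 and 0.97 in animals 3021 to 3024. In 3 of the 4 dosed animals the score was thus below every control, while 3023 was above control 3011. The difference was -1.67 (SE 0.31, adjusted p = 0.046). At 30 mg/kg Vdr scored 1.92, 2.59, 1.95 and 1.60, within or just below the control range (difference -0.85, adjusted p = 0.64), so the larger dose did not give the larger difference. The difference between the doses did not pass either (0.83, adjusted p = 0.77). The Vdr call at 3 mg/kg was lost without animal 3009 (adjusted p = 0.193), 3012 (adjusted p = 0.275), 3021 (adjusted p = 0.315), 3022 (adjusted p = 0.120) or 3024 (adjusted p = 0.118). Controls of the AMG B study, also sampled on day 14, scored between -0.13 and 0.66, lower than all 4 AMG A controls. Of 18 genes of the vitamin D system, Vdr alone passed at 3 mg/kg. Bglap, the osteocalcin gene and a target of the receptor in bone, was higher by 1.21 at 3 mg/kg and 1.28 at 30 mg/kg without passing (adjusted p = 1.00 and 0.64).

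Sgf29 (chromosome 1, 190668803 to 190702500), which reads methylated histones for the SAGA and ATAC acetyltransferase complexes, scored -0.25, -0.80, -0.20 and -0.24 in controls and -1.44, -1.48, -0.87 and -1.20 at 3 mg/kg. Every animal at 3 mg/kg was below every control, though 3023 and control 3010 nearly met. The difference was -0.87 (SE 0.17, adjusted p = 0.046). At 30 mg/kg it scored -1.07, -0.96, -0.27 and -1.02, and 3035 lay among the controls (difference -0.46, adjusted p = 0.64). The other probe set of Sgf29 differed by -0.11 at 3 mg/kg and by 0.02 at 30 mg/kg, so the call rests on 1 of 2 probe sets. The call was lost without 3009, 3011, 3012, 3021, 3022 or 3024 (adjusted p between 0.118 and 0.315). Controls of the AMG B study scored between -1.42 and -1.10, lower than the AMG A controls and at the level of the AMG A animals at 3 mg/kg. Of the 21 SAGA and ATAC subunits measured, Sgf29 alone passed. In a fit of the 12 AMG A arrays by themselves 0 genes passed at 3 mg/kg.

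Behind these 2 genes, the top of the ranking at 3 mg/kg held genes whose 4 animals all lay beyond the 4 controls but that did not pass. Such separation was seen for 287 of all genes (2.02%). Gpn3, a GTPase needed for the nuclear import of RNA polymerase II, scored 2.15, 2.36, 1.88 and 1.92 in controls and 0.75, 1.22, 0.40 and 0.26 at 3 mg/kg (difference -1.42, SE 0.30, adjusted p = 0.17). At 30 mg/kg it scored 1.72, 2.22, 1.30 and 1.33, partly back among the controls. The arginine methyltransferase Prmt3 lay between 1.89 and 2.06 in controls and between 0.45 and 0.93 at 3 mg/kg (adjusted p = 0.45). The nuclear pore subunit Nup93 (-0.52), the natural killer cell receptor Klre1 (-1.42) and the membrane-type metalloproteinase Mmp15 (-0.62) were the other low-ranking genes. On the high side stood Tln2, a talin (1.34), Zfp420 (1.18), Zfp746, a zinc finger repressor (1.00), the death ligand Faslg (0.89), the thyrotropin receptor Tshr (0.86) and COX1 (0.82), with adjusted p from 0.64 to 0.73. The 2 other probe sets of Tln2 differed by -0.01 and 0.22. By unadjusted p (below 0.05), 200 genes were higher (1.41%) and 255 lower (1.79%) there.

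**Figure D1:**
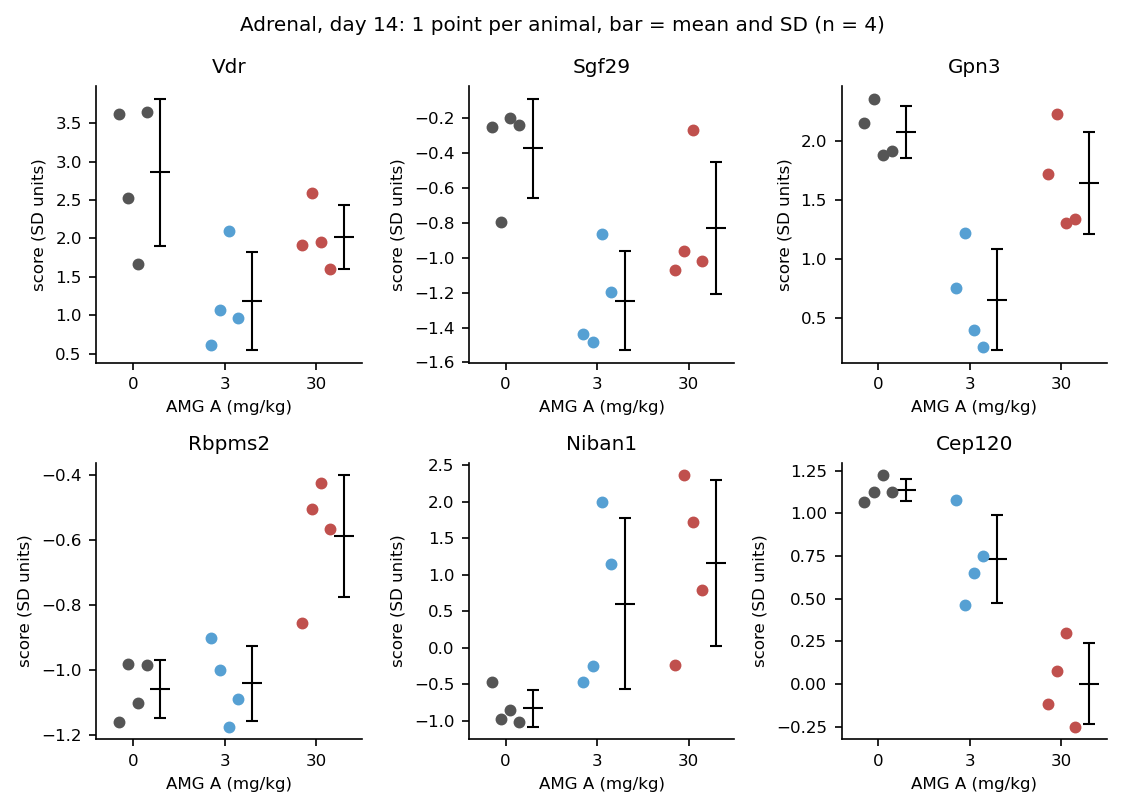
Score in SD units (vertical axis, not starting at 0 and scaled for each gene) of 6 genes in adrenal on day 14 against the AMG A dose in mg/kg. Each point is 1 animal and the bar is the mean with its SD (n = 4). Vdr, Sgf29 and Gpn3 are lowest at 3 mg/kg, while Rbpms2 and Cep120 stand apart at 30 mg/kg and Niban1 is high in 2 animals at 3 mg/kg and 3 at 30 mg/kg.

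No gene passed at 30 mg/kg. Of the 14217 genes tested in limma, 0 were called (0%) and 847 reached an unadjusted p below 0.05, of which 418 were higher (2.94%) and 429 lower (3.02%). The lowest adjusted p was 0.193 and the median SE of a difference 0.251. The groups did not overlap for 562 genes (3.95%).

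The gene nearest to the threshold was Rbpms2, an RNA-binding protein of smooth muscle. It scored -1.16, -0.98, -1.10 and -0.98 in controls, between -1.17 and -0.90 at 3 mg/kg and -0.85, -0.50, -0.42 and -0.56 at 30 mg/kg (difference 0.47, SE 0.09, adjusted p = 0.19). Animals at 3 mg/kg lay among the controls and those at 30 mg/kg above them. The day 14 controls of the AMG B study lay between -0.85 and -0.72, also above the AMG A controls. A second probe set of Rbpms2 differed by -0.22, the other way. Niban1, a regulator of the stress response, scored between -1.01 and -0.46 in controls, and -0.24, 2.36, 1.73 and 0.80 in 3033 to 3036 (difference 1.99, SE 0.47, adjusted p = 0.32). It was also high in 3023 (1.99) and 3024 (1.15) at 3 mg/kg, while 3021 (-0.48) and 3022 (-0.24) lay near the controls. Slc25a20, the mitochondrial carnitine carrier, named after its values were seen, was higher by 0.52 (adjusted p = 0.49). Without animal 3033, which lay nearest to the controls in Rbpms2 and Niban1, 3 genes passed: Rbpms2 (0.56, adjusted p = 0.014), Niban1 (2.46, adjusted p = 0.034) and Slc25a20 (0.67, adjusted p = 0.034).

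Cep120, which builds centrioles, was the lowest-ranking gene at 30 mg/kg. It scored 1.07, 1.12, 1.22 and 1.13 in controls, 1.08, 0.46, 0.65 and 0.75 at 3 mg/kg and -0.12, 0.08, 0.30 and -0.25 at 30 mg/kg (difference -1.13, SE 0.24, adjusted p = 0.27). The 3 groups were thus ordered by dose but for 3021, which lay within the control range. In AMG B controls of day 14 Cep120 scored between 0.64 and 1.24, above all 30 mg/kg animals. Its other probe set, with a control mean of -0.76, differed by 0.06. Alg9, a mannosyltransferase of N-glycan assembly (-0.60), Nxpe1 (-1.33), Gpr182, a receptor of endothelial cells (-0.61), and Fcho2, a clathrin adaptor (-0.52), were also below every control. Lnpk, which shapes the endoplasmic reticulum, differed by -1.70, but its control mean holds 3009 at 4.57 beside 3 controls between 1.12 and 1.19. On the high side, the ESCRT subunit Vps25 (1.97), Veph1 (1.09), the acyl-CoA thioesterase Acot13 (0.98) and Icmt, which methylates prenylated proteins (0.30), were above every control with an adjusted p of 0.617 each. Controls of the AMG B study, also of day 14, spanned the 30 mg/kg values in Acot13 (0.67 to 1.68) and Icmt (-1.06 to -0.61). In Vps25 (-1.11 to 0.38) and Veph1 (-2.31 to -0.48) they did not reach the highest 30 mg/kg animal.

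The trend over doses, a slope of the group means on log2(dose + 1), was passed by 0 genes (0%) in limma, with 884 at an unadjusted p under 0.05. The lowest adjusted p, 0.084, was that of Rbpms2. The 30 against 3 mg/kg contrast gave 0 calls (0%), with 819 at an unadjusted p under 0.05 and 436 genes without overlap (3.07%). Among the genes without overlap, those ranked highest at 30 over 3 mg/kg, without passing, were the respiratory chain subunits Ndufs7 (1.52) and Uqcrfs1 (0.96), Msmb (1.20), Tpgs1 (0.63), Nup93 (0.53) and Rbpms2 (0.46). In Tpgs1 the AMG B controls of day 14 (1.83 to 1.95) were as high as the 30 mg/kg animals (1.73 to 2.04). In Msmb they (-1.40 to -0.44) were mostly below them (-0.54 to 0.36). Lower were Csgalnact2, an enzyme of chondroitin sulfate chains (-1.25), Rasgrp3 (-0.72), the ubiquitin ligase Siah2 (-0.47), Fcho2 (-0.46), Ggnbp1 (-0.39) and Rassf7 (-0.29).

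Both doses together against control also gave 0 calls (0%) in limma, with 536 at an unadjusted p under 0.05. This contrast, like those of 3 and 30 mg/kg, rests on the same 4 controls. Its lowest adjusted p, 0.32, was that of Vdr (-1.26) and Sgf29 (-0.66), whose dosed animals overlapped the controls. The dosed animals and the controls did not overlap for 36 of the 14217 genes, 13 above and 23 below the controls. Among genes without overlap the low side was led by Kctd11 (-1.68), Eif5a2, an elongation factor (-1.19), Prmt3 (-1.08), the VEGF receptor Flt1 (-0.81), Pex5l (-0.70) and the sphingosine phosphate receptor S1pr5 (-0.50), with adjusted p from 0.67 to 0.80. S1pr5 lay between -0.23 and 0.19 in controls, between -0.62 and -0.50 at 3 mg/kg and between -0.70 and -0.31 at 30 mg/kg, so all 8 dosed animals were below all 4 controls. Scaper (1.03), Ythdf2, a reader of methylated RNA (0.96), Nhlrc3 (0.44), Chrna4 (0.41), Psg16 (0.36) and Dstl1 (0.15) led the high side. A second probe set of Scaper went the other way at both doses (-0.39 and -0.41), and one of Eif5a2 did so at 3 mg/kg (0.28). Without control 3011, 3 genes passed in this contrast, and 1 each without 3023 or 3035.

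No gene of steroid synthesis or of the medulla passed at either dose. To give these tissue-restricted genes a size, each difference was expressed as a percent of the gap between the control adrenal and the control pancreas of the same 4 animals, for genes whose gap exceeded 0.5. Over 17 cortical genes the median difference was 5.6% of that gap at 3 mg/kg and 2.1% at 30 mg/kg, beside a median SD among controls of 8.2%. Star, which brings cholesterol into the mitochondrion, scored 1.46, 1.62, 1.65 and 1.50 in controls, 1.83, 1.92, 1.66 and 1.51 at 3 mg/kg and 1.54, 1.65, 1.61 and 1.50 at 30 mg/kg. It differed by 7.6% of the gap at 3 mg/kg and 0.65% at 30 mg/kg, and its 95% interval at 30 mg/kg ran from -0.16 to 0.19 score units. Cyp11b1, the last enzyme of corticosterone synthesis, differed by 6.8% and -1.4%, and Cyp11a1, which cleaves the cholesterol side chain, by 9.1% and 3.5%. At 3 mg/kg 3 of the 4 animals lay above every control in Cyp11a1 (1.88, 1.89 and 1.88 against 1.43 to 1.71) and 3024, at 1.52, did not. The genes farthest from 0 at 30 mg/kg were Stard4 (39.7%), which carries cholesterol between membranes and is also a sterol-responsive gene, and the lipase Lipe (35.3%), which fat cells share. In 14 genes of the zona glomerulosa 0 passed at either dose, with medians of 0.09 and 0.17. Cyp11b2, the aldosterone synthase, and the corticotropin receptor Mc2r were not analysed here.

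Among 13 chromaffin genes the median difference was -7.8% of the gap at 3 mg/kg and -1.3% at 30 mg/kg, beside a median SD among controls of 16.4%. Stmn2, a neuronal microtubule regulator, differed most (-49.4%) at 3 mg/kg among the genes plotted, without passing. Its gap was small (0.77 score units, against 1.91 for Th), and the difference was -0.38 score units. The other probe set of Stmn2 differed by -0.24. Th, the rate-limiting enzyme of catecholamine synthesis, differed by -7.8% and -1.3%. Pnmt, which makes adrenaline, scored 0.66, 1.87, 1.81 and 1.83 in controls, 0.74, 1.21, 1.83 and 1.11 at 3 mg/kg and 1.37, 1.80, 1.53 and 0.99 at 30 mg/kg. The groups overlap over most of their range, and control 3009 was the lowest of all 12. In whole-gland RNA, fewer cells of a type and less RNA per cell cannot be told apart.

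**Figure D2:**
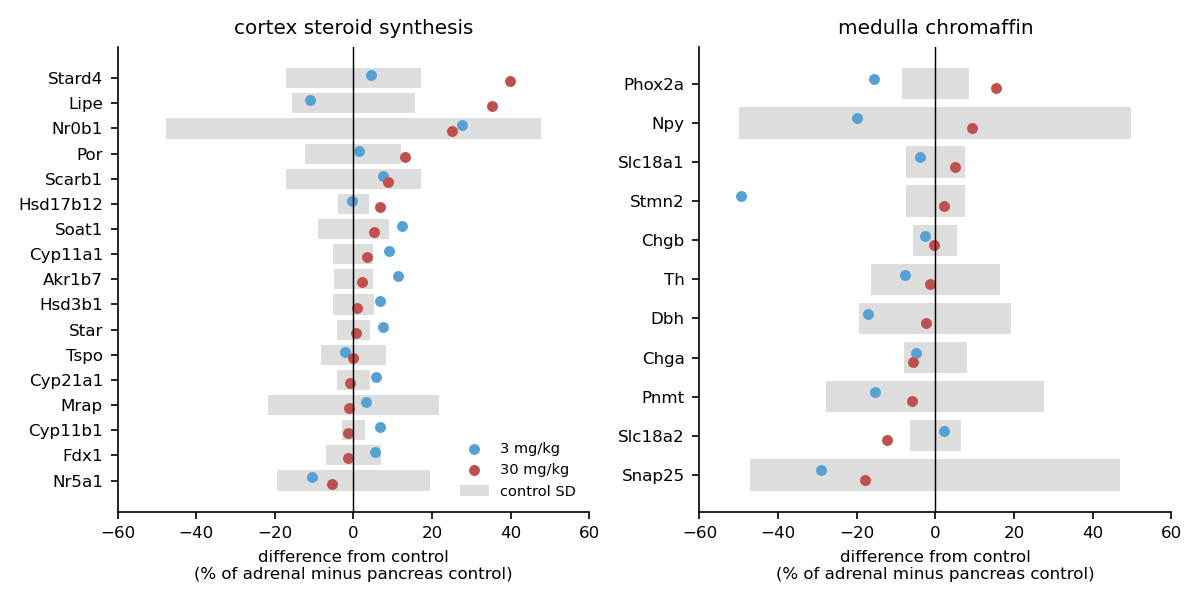
Difference of the 3 mg/kg (blue) and 30 mg/kg (red) group means from control, as a percent of the gap between control adrenal and control pancreas (horizontal axis), for 17 cortical and 11 medullary genes whose SD among controls was under 50% of that gap. Grey bars span 1 SD of the 4 controls to each side. The 3 mg/kg points of Cyp11a1, Akr1b7, Hsd3b1, Star, Cyp21a1 and Cyp11b1 lie to the right of the grey bars. The points farthest from 0 are those of Stmn2 at 3 mg/kg (-49.4%) and of Stard4 (39.7%) and Lipe (35.3%) at 30 mg/kg.

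Of the genes the pharmacology points to, none passed, and several receptors of the vessel wall scored lower at 30 mg/kg. Vegfa, the ligand, scored 1.51, 1.94, 1.83 and 1.57 in controls, 1.62, 2.01, 3.31 and 0.92 at 3 mg/kg and 1.65, 1.35, 1.86 and 1.32 at 30 mg/kg (differences 0.25 and -0.17). The 3 groups overlap, and the spread was widest at 3 mg/kg.

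Kdr, the main signalling receptor of VEGF, has 2 probe sets. The one that represents the gene lay between -1.09 and -0.83 on all 12 arrays and hardly varied. The other scored 0.93, 1.06, 1.74 and 1.46 in controls, 0.77, 1.09, 1.29 and 1.26 at 3 mg/kg and 0.47, 0.39, 0.26 and 0.70 at 30 mg/kg. All 4 animals at 30 mg/kg were below all controls on it (-0.84, unadjusted p = 0.0028, adjusted p = 0.57 over all probe sets), while those at 3 mg/kg overlapped the controls. With AMG B at 60 mg/kg the same probe set fell by 2.63 (adjusted p = 1.2e-08 over all probe sets).

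Tek, the receptor of the angiopoietins, scored 0.72, 1.50, 1.90 and 0.77 in controls and 0.44, 0.42, 0.54 and 0.37 at 30 mg/kg (-0.78, adjusted p = 0.64). The 4 animals at 30 mg/kg lay close together below every control. Those at 3 mg/kg (0.65 to 1.18) lay among the controls but for 3021 (0.65), which was just below them. Gpr182, named above from the ranking, scored 0.39, 0.67, 0.60 and 0.48 in controls and 0.18, 0.08, -0.49 and -0.07 at 30 mg/kg, and its other probe set also had a lower mean (-0.86). Clec14a, an endothelial lectin, was lower by 0.68 at 3 mg/kg and 0.92 at 30 mg/kg, giving a mean of 1.06, 0.38 and 0.14 over the 3 doses. Flt1, the decoy-like VEGF receptor, lay between 0.89 and 1.07 in controls, -0.09 and 0.44 at 3 mg/kg and -0.61 and 0.73 at 30 mg/kg (-0.78 and -0.85, adjusted p = 1.00 and 0.64). Its 2 other probe sets did not show this at 3 mg/kg (0.01 and 0.21) and were lower at 30 mg/kg by less (-0.48 and -0.27).

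Over 31 endothelial genes the median difference was -0.09 at 3 mg/kg and -0.14 at 30 mg/kg, against -0.01 and 0.00 over all genes. Of the 31, 21 were lower at 30 mg/kg, 6 of them at an unadjusted p under 0.05 and 0 past the adjusted threshold. Among all genes 50.8% were higher there, and 3.02% were lower at that unadjusted p. Icam2, an adhesion molecule, went the other way on the probe set used (2.19, animals 1.34, 1.34, 3.34 and 5.06 against 0.19 to 0.94 in controls), while its other probe set differed by -0.11. The endothelial mucin Emcn differed by -0.41, with 3 of the 4 animals at 30 mg/kg below every control. Of 10 VEGF ligands and receptors, 0 passed at either dose, with medians of 0.05 and -0.11.

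All genes measured in cholesterol synthesis had a higher mean at 30 mg/kg than in controls, without any of them passing. The pathway runs from acetyl-CoA through mevalonate to sterol, and it is known to be controlled by SREBP factors together with the CCAAT-binding factor NFY. The promoters of the 4 members with the largest differences at 30 mg/kg are shown for the CCAAT boxes they hold. They come from RefSeq (GRCr8) and cover the 140 bases before the start used for each promoter, on the strand of the gene. CCAAT is in capitals on either strand (ATTGG is the same box on the other strand). They lie at chr19:67414975-67415114, chr20:12118231-12118370, chr13:84722755-84722894 and chr2:176804817-176804956, all on the minus strand. Part of the Hsd17b7 window, with the box at -25, lies within the annotated gene, which reaches 84722810.
Mvd: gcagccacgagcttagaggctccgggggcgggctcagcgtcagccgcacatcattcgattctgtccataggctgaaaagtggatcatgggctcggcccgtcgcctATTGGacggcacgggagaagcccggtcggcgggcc
Lss: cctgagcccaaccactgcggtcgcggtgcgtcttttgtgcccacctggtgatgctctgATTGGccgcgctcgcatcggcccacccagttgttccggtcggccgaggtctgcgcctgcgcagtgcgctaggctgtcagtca
Hsd17b7: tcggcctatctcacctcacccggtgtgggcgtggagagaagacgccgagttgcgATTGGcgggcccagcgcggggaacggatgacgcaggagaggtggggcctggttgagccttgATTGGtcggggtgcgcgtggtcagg
Fdps: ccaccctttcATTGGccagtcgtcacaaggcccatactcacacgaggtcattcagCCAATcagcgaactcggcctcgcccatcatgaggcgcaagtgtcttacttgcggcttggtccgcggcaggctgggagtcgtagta
In the full windows of 250 bases before to 50 after the start, CCAAT on either strand was found in 12 of the 15 list members with a promoter in the table (80%), against 37.5% of all 33469 promoters. A match describes the letters and not a bound site.

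Of the 18 cholesterol synthesis genes measured, 18 were higher at 30 mg/kg, where 50.8% of all genes were, and the kidney list had all of its 15 genes higher as well (median 0.16). The cholesterol genes had a median difference of 0.59 and 0 passed. At an unadjusted p under 0.05, 4 (Ebp, Mvk, Tm7sf2 and Pmvk) were higher, beside 2.94% of all genes. Among the 3 mg/kg animals 13 of 18 were higher, with a median of 0.05, where 46.9% of all genes were higher.

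Mvd, which decarboxylates mevalonate diphosphate, scored -0.53, 0.85, 0.19 and 0.30 in controls, -0.27, 0.59, 1.05 and 0.12 at 3 mg/kg and 1.38, 1.27, 0.82 and 2.17 at 30 mg/kg (1.21, SE 0.69, adjusted p = 0.90). Only control 3010 reached the range of the 30 mg/kg animals. Lss, which closes the sterol ring, scored 0.01, 0.55, 0.30 and 1.00 in controls and 0.91, 1.87, 1.21 and 1.70 at 30 mg/kg (0.96, SE 0.49). Fdps, which makes farnesyl diphosphate, scored -0.13, 0.70, 0.38 and 0.79 against 0.88, 2.22, 0.99 and 0.88 (0.81, SE 0.50), and did not overlap. Hsd17b7 differed by 0.82, and Cyp51 (0.79), Mvk (0.67), Idi1 (0.64), Pmvk (0.63), Msmo1 (0.61) and Sqle (0.57) followed in size. Dhcr7 (0.20) and Nsdhl (0.14) differed least.

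The mean score of the list was 0.04, 0.66, 0.51 and 0.50 in the controls, 0.22, 0.69, 1.02 and 0.21 at 3 mg/kg and 0.96, 1.28, 0.74 and 0.94 at 30 mg/kg. Controls and 30 mg/kg animals did not overlap, and the 3 mg/kg group spanned both. With the fat cell score of each array as a covariate, fitted over all 48 adrenal arrays, the list's median was 0.64. The part of fat in these values was not tested. Leaving out 1 animal at a time gave medians from 0.35 to 0.68. Of 13 genes of sterol uptake and regulation 0 passed, and Srebf1 (0.21) had an unadjusted p of 0.035.

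**Figure D3:**
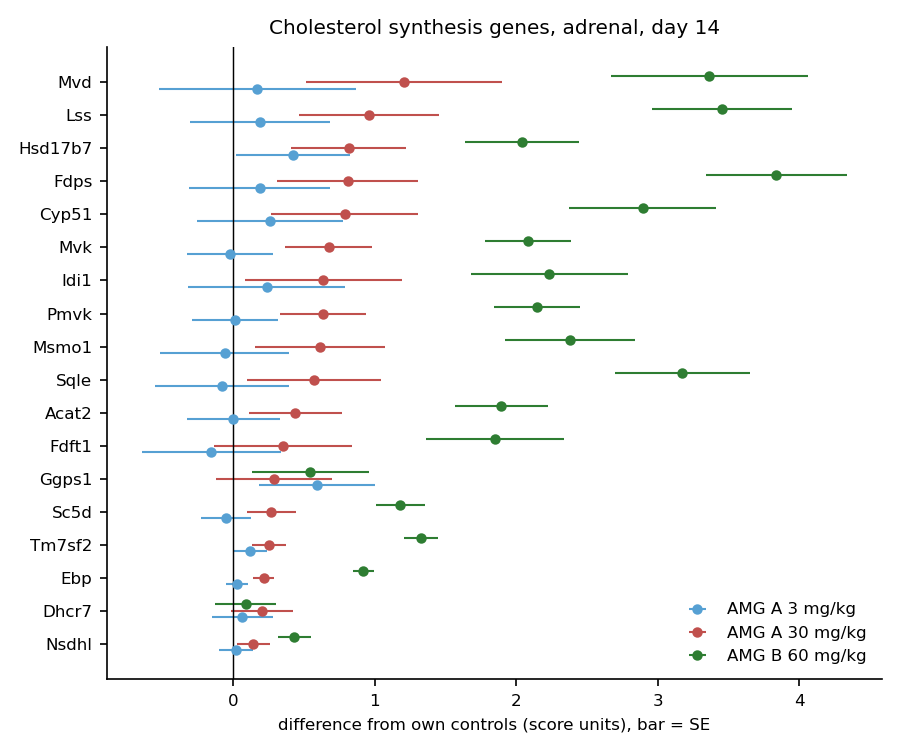
Difference of each cholesterol synthesis gene from the controls of its own study on day 14, in score units (horizontal axis), for AMG A at 3 mg/kg (blue), AMG A at 30 mg/kg (red) and AMG B at 60 mg/kg (green). Bars are standard errors. All 18 red points are above 0, and 16 of the 18 AMG B differences passed while 0 of the AMG A differences did.

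Immediate early genes, which are transcribed within minutes of a stimulus, had lower means at 30 mg/kg in 21 of 24 members, and 0 passed. Several of them, and some genes that respond to glucocorticoid, had even values at 30 mg/kg beside scattered ones in the controls. The promoters of 3 genes are shown for the full cyclic AMP response element TGACGTCA that they hold, in capitals, in a window of 60 bases around it, from RefSeq (GRCr8). They lie at chr16:18769959-18770018 (minus strand), chr19:40399281-40399340 and chr10:17184703-17184762 (plus strand).
Jund: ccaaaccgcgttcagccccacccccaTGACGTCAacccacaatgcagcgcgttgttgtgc
Ier2: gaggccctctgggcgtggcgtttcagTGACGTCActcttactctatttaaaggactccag
Dusp1: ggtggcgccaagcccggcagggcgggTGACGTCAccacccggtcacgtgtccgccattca
The element was found in 3 of the 16 immediate early genes with a promoter in the table (18.8%), against 1.83% of all 33469 promoters. These 3 are shown because they hold it, whatever their difference in score. Jund was not among the 5 members lower at an unadjusted p under 0.05 in limma. Junb, which was, has a promoter there without the element.

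Dusp1, the phosphatase that switches off MAP kinases, scored 4.46, 0.93, -0.33 and -0.45 in controls, -0.94, -0.28, 1.03 and -0.69 at 3 mg/kg and -0.53, -0.86, -1.05 and -0.82 at 30 mg/kg (-1.97, adjusted p = 0.72). All animals at 30 mg/kg were below all controls, but control 3009 alone makes up most of the control mean. Ier2 scored 3.96, 1.10, 0.77 and 0.24 against 0.00, -0.29, -0.45 and -0.22 at 30 mg/kg (-1.75), and 2.60 in 3023. Nr4a1, a nuclear receptor induced by corticotropin in the cortex, scored 2.19, 2.34, 3.37 and 1.20 in controls and 0.58, -0.18, -0.23 and -0.22 at 30 mg/kg (-2.29, adjusted p = 0.65), with 0.84, 2.95, 4.20 and -0.11 at 3 mg/kg. In each of these genes the highest animal at 3 mg/kg was 3023, which also led the first principal component. Junb (-2.21) and Jun (-0.79) were the other 2 of the 5 genes of 24 with an unadjusted p under 0.05, where 3.02% of all genes were lower. The probe sets of Fos disagreed: the one used differed by -0.05 (controls 0.55 to 2.09, 30 mg/kg 0.89 to 1.35), while the other scored 4.53, 2.55, 0.26 and -0.17 in controls and 0.06, -0.02, -0.16 and -0.11 at 30 mg/kg (-1.85, unadjusted p = 0.090 in limma).

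The list's mean score was 1.06, 0.61, 1.03 and 0.24 in controls, 0.28, 1.12, 1.91 and 0.13 at 3 mg/kg and 0.34, 0.00, 0.01 and 0.10 at 30 mg/kg. Its SD was 0.39 in controls, 0.83 at 3 mg/kg and 0.16 at 30 mg/kg, and control 3012 lay within the 30 mg/kg range. Of 24 genes 21 were lower at 30 mg/kg (median -0.23), while at 3 mg/kg 16 of 24 were higher (median 0.16). The shares of all genes that were higher were 50.8% and 46.9%. With the fat cell score as a covariate the median at 30 mg/kg was -0.31.

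Among 18 glucocorticoid-responsive genes the median was -0.05 at 30 mg/kg, with 8 of 18 higher, close to the share over all genes, and 0 passed. At an unadjusted p below 0.05, 4 were lower and 1 higher, where 3.02% and 2.94% of all genes were. Of the 8 higher members, 7 differed by between 0.00 (Cdkn1a) and 0.04 (Fkbp5). Ddit4, an inhibitor of mTOR signalling, scored 2.72, 3.66, 1.68 and 0.07 in controls and -0.35, -0.21, -0.40 and -0.37 at 30 mg/kg (-2.37, adjusted p = 0.64). Per1, a clock gene that glucocorticoid induces, differed by -1.85, and the kinase Sgk1 scored 0.21, 0.22, 0.73 and 0.15 against -0.15, -0.24, -0.36 and -0.32 (-0.59). Pdk4, which restrains glucose oxidation, had a mean higher by 0.61. It scored -0.80, -0.49, -1.15 and -0.97 in controls and -0.76, -0.86, 0.77 and -0.11 in 3033 to 3036. Animals 3033 and 3034 thus lay among the controls. The list's mean lay between -0.42 and -0.02 in controls and between -0.66 and -0.55 at 30 mg/kg, without overlap. That mean leans on the members with large differences, such as Ddit4 and Per1, since the median difference was -0.05. The time between dosing and sampling is not given in the sources used here, and its part in these values was not tested.

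**Figure D4:**
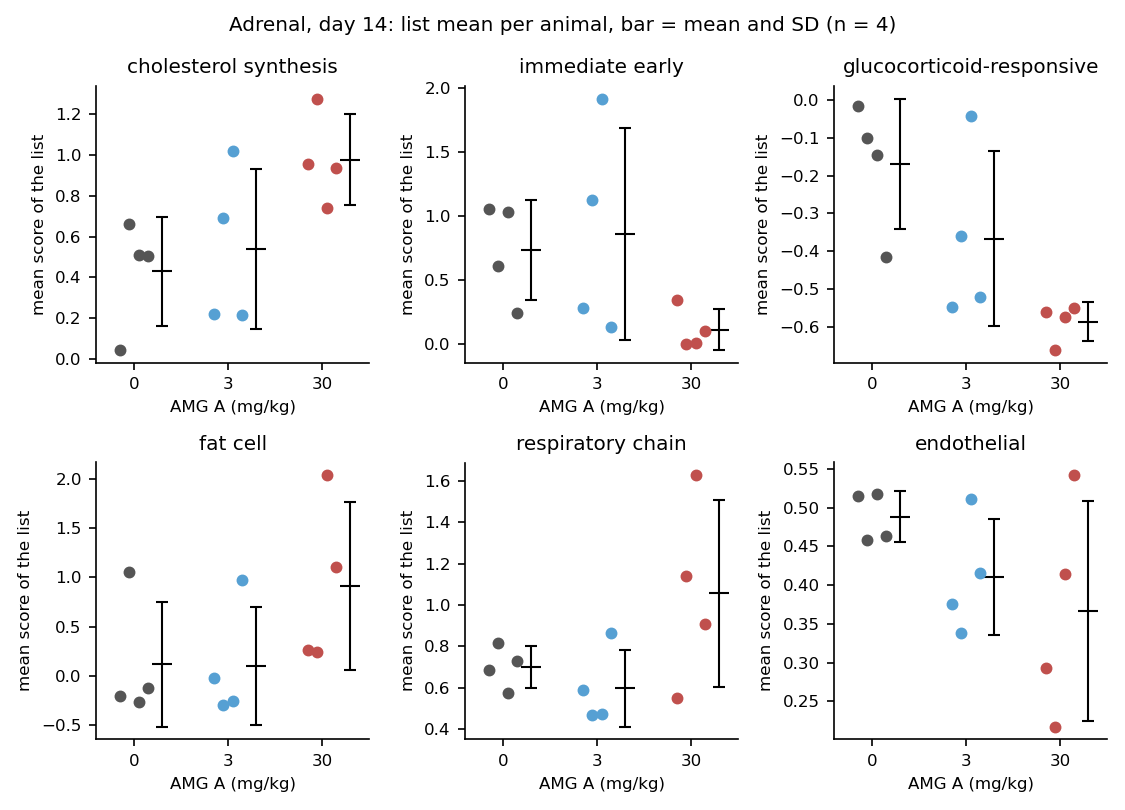
Mean score of 6 gene lists (vertical axis, not starting at 0 and scaled for each list) in each adrenal on day 14 against the AMG A dose in mg/kg. Each point is 1 animal and the bar is the mean with its SD (n = 4). The cholesterol list is high and the glucocorticoid list low at 30 mg/kg without overlap with controls. In the glucocorticoid list the median difference of the members was only -0.05. The fat cell and respiratory chain lists are highest in animal 3035 (2.04 and 1.63).

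Fat cell genes and respiratory chain genes had higher means at 30 mg/kg in an uneven way. Of 18 fat cell genes 16 were higher (median 0.69), 7 had an unadjusted p under 0.05 and 0 passed. Among all genes 50.8% were higher there, and 2.94% were higher at that unadjusted p. Adipoq, the fat cell hormone adiponectin, scored -0.33, 0.92, -0.46 and -0.32 in controls and -0.02, -0.01, 1.86 and 0.70 at 30 mg/kg. Ucp1, the uncoupling protein of brown fat, scored -0.31, 2.67, -0.35 and -0.22 in controls and 1.26, 0.54, 5.10 and 3.54 at 30 mg/kg (2.16, adjusted p = 0.76). Control 3010 and animal 3024 at 3 mg/kg (2.09) were high too, so each dose group held at least 1 animal with a high score.

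In the respiratory chain, 23 of 25 subunits were higher at 30 mg/kg (median 0.35), 7 with an unadjusted p below 0.05. The shares of all genes were 50.8% and 2.94%. At 3 mg/kg 7 of 25 were higher (median -0.07), beside 46.9% of all genes. Sdhc, a membrane subunit of succinate dehydrogenase, scored 1.14, 1.26, 1.41 and 1.60 in controls and 1.41, 2.00, 2.05 and 1.74 at 30 mg/kg (0.45, adjusted p = 0.62). Ndufs7, an iron-sulfur subunit of complex I, scored 0.96, 1.31, 0.89 and 0.50 in controls, -0.26, 0.40, 0.31 and 1.06 at 3 mg/kg and 2.30, 1.53, 2.13 and 1.66 at 30 mg/kg. Its 30 mg/kg animals lay above all the others of the AMG A study, while AMG B controls of day 14 scored between 1.02 and 1.95. The list's mean was 0.55 in 3033, 1.14 in 3034, 1.63 in 3035 and 0.91 in 3036, against 0.57 to 0.81 in controls. With the fat cell score as a covariate the respiratory chain median was 0.13. Leaving out 1 animal at a time gave medians from 0.17 (without 3035) to 0.50 (without 3033) for the respiratory chain, and from 0.41 (without 3035) to 1.00 (without 3010) for the fat cell list.

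The AMG A animals could be set beside those of AMG B at a matched dose only at 3 mg/kg on day 14, which makes 1 pair of dose groups, compared over all genes. The AMG B adrenals of that day came from rats of the same strain, sex and age at 0, 3 and 60 mg/kg, and no animal is shared. The effect of 3 mg/kg of AMG A differed from that of 3 mg/kg of AMG B in 3 genes (0.0211%), all more negative with AMG A: Sgf29 (-1.41, SE 0.24, adjusted p = 0.0087), Tbl1x, a subunit of a corepressor complex (-1.35, SE 0.25, adjusted p = 0.036), and Msl1, a scaffold of a histone acetyltransferase (-1.32, SE 0.25, adjusted p = 0.037). With AMG B at 3 mg/kg 4 genes passed (0.0281%), Tbl1x among them.

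The control groups of the compounds stood apart in Sgf29 and Tbl1x and met at their edges in Msl1. Tbl1x scored between 1.14 and 1.70 in the AMG A controls and between -0.07 and 0.24 in the AMG B controls, while the animals at 3 mg/kg lay between 1.02 and 1.60 with AMG A and between 0.74 and 1.65 with AMG B. Msl1 scored between -0.69 and -0.09 in AMG A controls and between -0.85 and -0.67 in AMG B controls, and between -1.30 and -0.58 against -0.64 and 0.43 at 3 mg/kg. The dosed animals of AMG A thus lay within the range of those of AMG B in Tbl1x, and mostly below it in Msl1. The part of the control levels in these calls was not tested. Msl1 has 3 other probe sets, which differed by -0.08 to 0.05 at 3 mg/kg of AMG A. The other probe set of Sgf29 differed by -0.11 there. Those of Tbl1x differed by 0.07 and 0.17, against -0.16 on the one used. At 60 mg/kg of AMG B they differed by -1.65 and 0.25, against 1.35 on the one used. With the mean of a gene's probe sets the Tbl1x difference between the compounds at 3 mg/kg was 0.085.

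For genes that did not differ the intervals were wide, with a median SE of 0.354. The difference between the effects of the compounds at 3 mg/kg was 0.12 for Star (95% interval -0.14 to 0.37), 0.49 for Vegfa (-0.47 to 1.46), 0.06 for Gpr182 (-0.35 to 0.47) and -0.63 for Slc2a1 (-1.72 to 0.46). The endothelial list had a median of -0.09 with AMG A and -0.26 with AMG B at 3 mg/kg, with 0 genes past the threshold in either.

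The high doses differ, 30 mg/kg of AMG A and 60 mg/kg of AMG B, and their values are set side by side. AMG B at 60 mg/kg changed 1295 genes (9.11%), 642 upward and 653 downward, in the same tissue and on the same day, where AMG A at 30 mg/kg changed 0. The effects differed in 309 genes (2.17%), in which dose and compound cannot be told apart. Slc2a1, the hypoxia-inducible glucose transporter, scored between -0.03 and 0.49 at 30 mg/kg of AMG A against 0.10 to 0.60 in its controls (-0.10), and between 2.88 and 6.89 with AMG B against -0.04 to 0.42 (4.40). Hmox1, haem oxygenase, differed by -0.00 and 4.63, and Ropn1l by 0.07 and 4.88. Of 28 hypoxia-inducible genes 0 passed with AMG A (median 0.10) and 19 with AMG B (median 1.20). Eno1, an enolase, was higher by 0.46 at 30 mg/kg of AMG A (adjusted p = 0.65) and rose by 1.92 with AMG B.

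In the cholesterol list the AMG B median was 2.06 and 16 of 18 genes passed. In the endothelial list it was -0.49 with 9 genes lower, and Tek, for one, fell by 2.70. The effects differed in 6 cholesterol genes and in 3 endothelial ones. Respiratory chain genes had a median of -0.18 with AMG B, opposite in sign to AMG A, and the effects differed in 4 of 25.

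Read over the genes that AMG B changed, the AMG A animals at 30 mg/kg had the same sign for 397 of 642 (61.8%) of those AMG B raised and for 373 of 653 (57.1%) of those it lowered, with median differences of 0.05 and -0.03. Over all genes 50.8% were positive and the rest were not. At 3 mg/kg 45.3% of the raised genes were positive and 62.2% of the lowered genes negative. There 46.9% of all genes were positive and the rest were not, so a negative sign was the commoner. A summary of these genes per animal (mean score of the raised minus mean of the lowered) lay between -0.41 and -0.11 in AMG A controls, -0.36 and 0.04 at 3 mg/kg and -0.23 and 0.17 at 30 mg/kg. These ranges overlap. AMG B controls lay between -0.89 and -0.65 and AMG B animals at 60 mg/kg between 0.85 and 1.76, so no AMG A animal reached the range of the AMG B high dose.

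**Figure D5:**
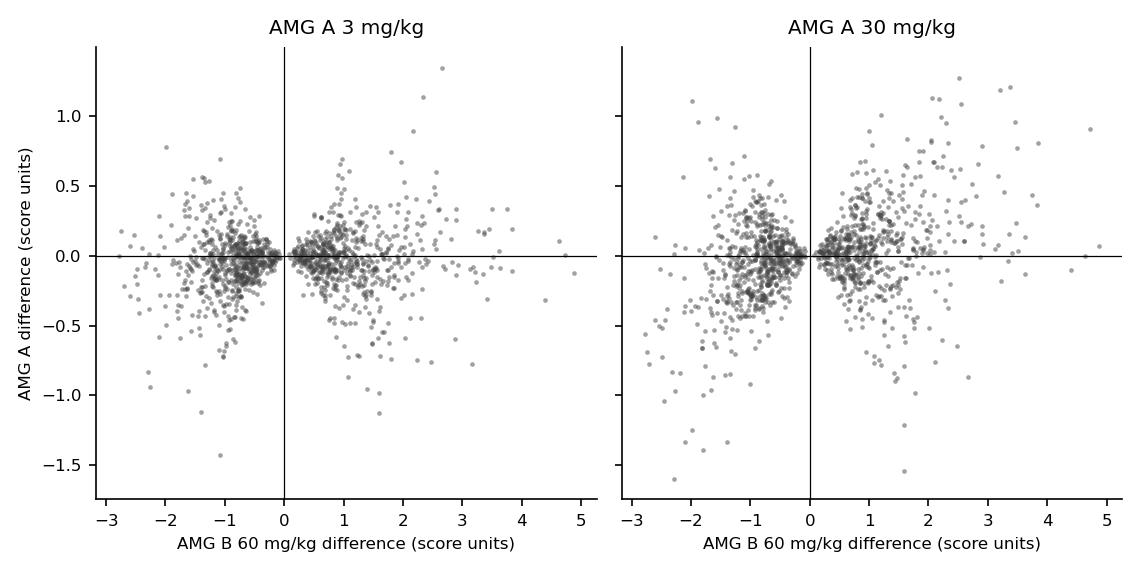
Each point is 1 of the 1295 genes that AMG B at 60 mg/kg changed in adrenal on day 14. The horizontal axis gives its AMG B difference and the vertical axis its AMG A difference at 3 mg/kg (left) or 30 mg/kg (right), both in score units. The AMG B values chose the genes and are a description. The AMG A values scatter around 0, and at 30 mg/kg 397 of the 642 raised genes lie above 0.

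In the livers of the same animals, measured on a different array type, the xenobiotic enzyme Cyp1a2 had mean scores of 0.18, 0.62 and 1.90 at 0, 3 and 30 mg/kg. Liver means at these doses were -0.28, -0.27 and -0.20 for Cyp1a1, and -0.71, -0.71 and -0.72 for Cyp1b1. In the adrenals of these animals Cyp1a2 was at its floor at every dose (means -0.92, -0.93 and -0.92). Cyp1b1, the member of that family expressed in adrenal, scored 1.63 ± 0.14 in controls, 1.79 ± 0.23 at 3 mg/kg and 1.67 ± 0.08 at 30 mg/kg (SD, n = 4). These groups overlap, and of 10 genes of the aryl hydrocarbon receptor list 0 passed at either dose.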

How the data were processed

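Adrenal RNA of each animal was hybridised to 1 array, from 5 ug of total RNA extracted on RNeasy midi columns and labelled with biotin in 1 cycle, per the labels' protocols. The authors deposited scores that are standardised for each probe set (mean near 0, SD near 1 over all arrays), as read from the values. Not given in the sources used here were the scanner software, summary method, scaling and scan dates, so signal over background is unknown and no log or pseudocount was applied. Of 31042 probe sets, 20826 have 1 gene symbol in the platform annotation, 436 several and 9780 none. A gene with several probe sets was represented by the one whose variance lay most between tissues, which left 14217 genes. Controls were tied to AMG A by their animal numbers.

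The scores of all 48 adrenal arrays (12 groups) were fitted with limma 3.58.1 in R 4.3.3 (lmFit, contrasts.fit, eBayes with trend), two-sided, with Benjamini-Hochberg adjustment over genes. Confidence intervals are at 95%. Tables and figures were made with Python 3.11.15, pandas 2.3.3 and matplotlib 3.10.9. The fit was tested on simulated data. The alternatives changed the samples, scaling, probe set choice, low-score filter, variance model, array weights, covariates and single animals. Named genes are those called (at most 8 each way where more than 16 were), the 6 that ranked first each way with no overlap for each dose contrast, up to 4 members of each of 30 lists, a few genes of the pharmacology, and further genes named after their values were seen. Members and lists were chosen with earlier results of these data known. The AMG A minus AMG B contrasts subtract each compound's own controls. Promoters are RefSeq sequences of assembly GRCr8.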

Additional observations from a re-analysis of the deposited data

Results flagged for a closer look

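Of 168 checks for a single animal far from the 3 others of its group, 11 passed Dixon's 95% limit for 4 animals, where chance gives about 1 in 20. In controls, 3010 was apart in Sgf29 (-0.80), Ucp1 (2.67), the fat cell list mean (1.06) and the medulla list mean (0.90), and 3009 in Lnpk (4.57). At 3 mg/kg, 3024 was apart in Cyp11a1 (1.52) and Tbl1x (1.60). At 30 mg/kg, 3034 was apart in Nup93 (1.85) and Alg9 (-0.51), 3033 in Nr4a1 (0.58) and 3035 in Sgf29 (-0.27).

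The effects of 3 mg/kg of AMG A and of AMG B differed, by the contrast of the differences in limma, in Sgf29 (-1.41), Tbl1x (-1.35) and Msl1 (-1.32).

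Between 30 mg/kg of AMG A and 60 mg/kg of AMG B the same contrast passed for 309 genes, in which dose and compound cannot be told apart. The most negative differences named were Ropn1l (-4.80), the haem oxygenase Hmox1 (-4.63), the glucose transporter Slc2a1 (-4.50), Asb9 (-4.04), the bile acid carrier Fabp6 (-3.82), the glycolytic enzyme Eno2 (-3.76), the stress hormone Gdf15 (-3.53) and the kinesin Kif21a (-3.49). All 8 had a higher mean with AMG B than in its controls, and in Asb9 the AMG A mean was lower than in controls (-2.56 against 1.48). The most positive were Tspyl2 (3.10), Tfap2c (2.85), the leucine enzyme Ivd (2.74), Lilra5 (2.66), the complex I subunit Ndufs7 (2.55), Lrfn4 (2.33), Nicol1 (2.29) and Cd1d1 (2.23). Ndufs7 differed by 0.99 with AMG A and by -1.56 with AMG B. Lrfn4 differed by 1.14 and -1.19 on the probe set used, and by 0.43 and 0.41 on its other probe set.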

How the results depend on the processing

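No paired analysis was possible because the dose groups hold different animals and their numbers do not match animals across groups. The 2 calls at 3 mg/kg became 0 in a fit of the AMG A arrays alone, with arrays centred and scaled, with the mean or the highest of a gene's probe sets, with no variance trend, with robust variances, with the first principal component as a covariate or with every probe set by itself, and 1 with quantile normalization or a filter on low scores. The principal component and every-probe-set settings were chosen after seeing the data. Leaving out 1 animal gave 0 to 4 calls at 3 mg/kg (4 without 3023, 0 without 3009, 3012, 3021, 3022 or 3024), 0 to 3 at 30 mg/kg, 0 to 2 between the doses (2 without 3033, 1 without 3034 or 3036), 0 to 2 for the trend (2 without 3033) and 0 to 3 for both doses. Array weights gave 1 call at 30 mg/kg (Cep120, adjusted p = 0.038) and 2 for the trend, a slope on mg/kg gave 1, and every probe set by itself gave 3 for both doses.

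The 3 differences between compounds at 3 mg/kg became 0 with the day 14 arrays alone, the highest probe set or the filter, 1 with quantile normalization, scaling, the mean of probe sets or the medulla score as covariate, and 1 to 4 with 1 animal left out (1 without 3012, 28 or 32). The 309 genes became 101 with the day 14 arrays alone, 471 with array weights and 178 to 446 with 1 animal left out (178 without 3012, 200 without 3010, 202 without 25). With the highest probe set the sign turned for Sgf29 (0.016) and Rbpms2 (-0.22) at 30 mg/kg and for Tln2 (-0.015) and Flt1 (0.21) at 3 mg/kg, and with the mean of probe sets for Tbl1x between compounds (0.085). The cause was not tested. Under all settings but left-out animals, 698 list medians moved by less than the spread between animals and 18 by more. The cortex list's median at 3 mg/kg (0.12) ran from 0.04 without 3009 to 0.25 without 3024.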

Other observations

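Lists not described above held 0 calls at either dose in limma. Among all genes 50.8% were higher at 30 mg/kg. Macrophage and complement genes had lower means at 30 mg/kg in most of 19 members (median -0.11, 4 higher). Cd74 (-0.47), Mrc1 (-0.49) and Cd14 (-0.46) had an unadjusted p under 0.05, where 3.02% of all genes were lower. The control mean of Cd14 holds 3009 at 0.48 beside the other controls between -0.60 and -0.26. The mean of the macrophage and complement list lay between -0.41 and -0.28 in controls and between -0.61 and -0.39 at 30 mg/kg. Cell cycle genes were higher in 29 of 37 members at 30 mg/kg (median 0.20), with list means of 0.33 to 0.47 against -0.07 to 0.32 in controls. The basement membrane list had a median of 0.06 at 30 mg/kg, and -0.34 with the fat cell score as a covariate.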
